A study of Mus musculus with 8 samples.

Results

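The 36 genes described here were listed as genes of microglia, the brain's own macrophages, in their homeostatic state. Not each of them is particular to microglia. They were measured in the cortex of mice heterozygous for Mef2c and of wild type mice. They were taken from a fixed list of symbols, matched to the table of counts without regard to letter case. Complement and cathepsin genes were not part of the list. All 36 of 36 symbols were found among the 22000 rows, and all 36 passed the filter on low counts that left 13879 genes. Messenger RNA was sequenced from the whole cortex of 8 mice, 1 library per mouse. The 4 mice labelled Mef2c heterozygous and the 4 labelled Mef2c wild type each comprised 2 males and 2 females. The sources used here give neither age, strain nor the altered part of the Mef2c gene, and they name no treatment. The labels name no Cre line or transgene, and the study's question concerns reduced MEF2C function in neurons and in immune cells of the brain.

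Total counts per library lay between 16092773 and 17841377, and RNA integrity numbers between 8.6 and 9. Mef2c itself had a higher count in the libraries labelled heterozygous, at 1304 ± 73.2 CPM, than in those labelled wild type, at 995 ± 41.3 CPM (SD, n = 4 each). CPM are counts scaled to a common library total. Mef2c thus went against the label, and each direction given here is that of the labelled groups. Heterozygous replicate 4, labelled female, held 72 reads of 4 Y-linked genes, against 0 to 3 in the other female libraries and 2150 to 2564 in the male ones. The animal numbers in the titles form a first series and a higher, second one, each with 1 animal per sex and genotype, and their meaning is not stated.

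Microglia survey the tissue with receptors for nucleotides, chemokines and lipids, and they depend on signalling through the receptor CSF1R for survival. TGF-beta signalling and the transcription factors PU.1, IRF8 and SALL1 maintain the expression programme that sets them apart from other macrophages. When microglia respond to damage, many of these genes are known to be lowered while phagocytic and lipid-handling genes are raised. MEF2C is one of the transcription factors expressed by microglia as well as by cortical neurons. In whole cortex, fewer microglia and less RNA per microglial cell cannot be told apart, and neither can more cells and more RNA per cell. Reads from any other cell that expresses a gene are counted too, and the part of each cell type was not measured.

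Every gene of the list was detected in all 8 libraries, with 20 to 2225 reads per gene and library. Per kilobase of annotated exon, Lgmn, the lysosomal protease legumain, stood near the top of the list, at 53.7 ± 1.41 CPM per kb in the libraries labelled heterozygous and 52.9 ± 1.73 CPM per kb in those labelled wild type (SD, n = 4 each). Csf1r followed at 20.2 ± 0.893 and 18.004 ± 0.611 CPM per kb, and the ADP receptor gene P2ry12 at 18.2 ± 1.33 and 19.0 ± 0.954 CPM per kb. Over the 8 libraries the levels of these 2 genes, neighbours in this order, overlapped. The adaptor gene Tyrobp had 15.98 ± 1.71 and 13.7 ± 0.769 CPM per kb. At the low end stood the transcription factor gene Irf8, at 0.722 ± 0.125 and 0.732 ± 0.0541 CPM per kb, and Ptprc, which codes for the leukocyte antigen CD45, at 0.157 ± 0.0464 and 0.134 ± 0.0242 CPM per kb. The exon length counts every annotated isoform and lowers the value of genes with many of them, such as Ptprc. The defining genes P2ry12, Tmem119, Cx3cr1, Csf1r and Sall1 were all present, as was every gene of the list, so their presence is no test of the label. Of 14 markers of blood leukocytes 13 were too low to be tested, and Cd3g and Ms4a1 were at 0 in every library. Of 12 markers of perivascular macrophages, however, 5 were high enough to be tested. The part of those macrophages in the levels of the list was not measured.

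Promoters are shown for 4 of the genes. Cx3cr1 was the only gene of the list with a MEF2 box in this window, and Slc2a5 had the largest difference of the list. Inpp5d and Trem2 were picked from the genes that lay higher without overlap between the genotypes, and others of these are not shown. RefSeq promoter sequences (GRCm38.p6), from 250 bases before to 50 bases after the start site, were matched for 27 of the 36 genes. They were searched on both strands for the MEF2 box (CTA, any 4 bases, TAG), the PU box GAGGAA bound by PU.1, and the composite of ETS and IRF sites (GGAA, any 2 bases, GAAA), whose GGAA can be shared with a PU box. Capitals mark the matches, and each sequence runs 5′ to 3′ in the direction of the gene.
Cx3cr1: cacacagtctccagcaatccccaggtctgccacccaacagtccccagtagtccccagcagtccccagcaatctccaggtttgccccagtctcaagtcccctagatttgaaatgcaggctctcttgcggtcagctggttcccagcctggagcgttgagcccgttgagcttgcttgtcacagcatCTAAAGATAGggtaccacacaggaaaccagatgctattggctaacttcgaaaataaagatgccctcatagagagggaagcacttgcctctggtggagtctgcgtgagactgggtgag
Inpp5d: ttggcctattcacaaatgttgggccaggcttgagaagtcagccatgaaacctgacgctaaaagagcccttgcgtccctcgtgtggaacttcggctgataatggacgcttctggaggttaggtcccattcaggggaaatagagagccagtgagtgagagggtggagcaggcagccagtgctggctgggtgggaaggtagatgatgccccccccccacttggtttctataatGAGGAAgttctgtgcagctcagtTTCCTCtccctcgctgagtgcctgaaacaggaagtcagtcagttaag
Trem2: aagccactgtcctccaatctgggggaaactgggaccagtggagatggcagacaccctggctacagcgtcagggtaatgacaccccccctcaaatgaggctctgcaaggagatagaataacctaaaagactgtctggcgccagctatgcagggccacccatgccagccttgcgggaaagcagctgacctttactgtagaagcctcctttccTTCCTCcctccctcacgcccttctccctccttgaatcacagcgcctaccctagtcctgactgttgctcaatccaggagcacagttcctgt
Slc2a5: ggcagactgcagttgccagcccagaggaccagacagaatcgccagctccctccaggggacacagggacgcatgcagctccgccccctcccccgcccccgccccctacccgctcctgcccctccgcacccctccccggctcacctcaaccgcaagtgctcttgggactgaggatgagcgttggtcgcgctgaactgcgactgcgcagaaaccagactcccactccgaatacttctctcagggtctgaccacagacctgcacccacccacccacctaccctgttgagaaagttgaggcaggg
The windows are chr9:120068247-120068546 on the minus strand for Cx3cr1, and on the plus strand chr1:87620062-87620361 for Inpp5d, chr17:48346151-48346450 for Trem2 and chr4:150119094-150119393 for Slc2a5. The MEF2 box of Cx3cr1 begins 67 bases before the start site. It was found in 1 of the 27 genes (3.70%) and in 4.23% of all 27025 genes with a promoter sequence. A PU box was found in 16 of the 27 (59.3%) and in 31.3% of all genes, and the composite in 1 of the 27, Cd68 (3.70%), and in 3.16% of all genes. Slc2a5 held none of the 3 motifs. Of the genes without overlap that are not shown, P2ry13 also held a PU box. For Csf1r and Fcer1g either no PU box was found or no promoter sequence was matched. Whether the motifs go with the genotype difference was not tested. A match describes letters only, and binding was not measured.

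The comparison of the genotypes asked whether these genes differ in cortex with the Mef2c genotype. Most of them had slightly higher means in the libraries labelled heterozygous, and none passed the test. The largest difference among the genes was the lower level of Slc2a5, the gene of the fructose transporter GLUT5, at 2.67 ± 0.628 CPM in the libraries labelled heterozygous and 4.58 ± 0.412 CPM in those labelled wild type (SD, n = 4 each). Csf1r was among the higher genes, at 117 ± 5.16 CPM and 104 ± 3.53 CPM in the same order. Of the 36 genes, 0 were called at an adjusted p under 0.05 after Benjamini-Hochberg adjustment of edgeR's quasi-likelihood test, where 0.267% of all 13879 genes tested were called. DESeq2's Wald test and limma-voom also called 0 of the 36. At an unadjusted p under 0.05, 9 of the 36 stood out in edgeR, where 7.24% of all genes did so. Of these, 8 were higher, beside 3.54% of all genes, and 1 was lower, beside 3.7% of all genes. Without wild type replicate 2, 5 were higher and 1 was lower, beside 3.02% and 3.14% of all genes. In CPM, 6 genes lay higher without overlap between the genotypes, where 2.16% of all genes did, and 1 lay lower, where 2.38% did.

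The log2 fold changes, heterozygous over wild type, of the 36 genes had a median of 0.13, where that of all genes tested was -0.001. They lay above 0 for 26 of the 36 genes, and for 49.5% of all genes. The log2 fold change was smaller than 0.25 in either direction for 29 of the 36. The 95% interval of the log2 fold change stayed between -0.5 and 0.5 for 24 of the 36 genes, and reached past one of these bounds for the other 12, of which 5 had an interval that excluded 0. Within a genotype the levels varied by a median of 9.86% (coefficient of variation), where counting error alone would give 6.77%. The list was chosen with earlier results of these data known, and its 36 genes are measured in the same 8 libraries, so these counts are a description.

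**Figure D1:**
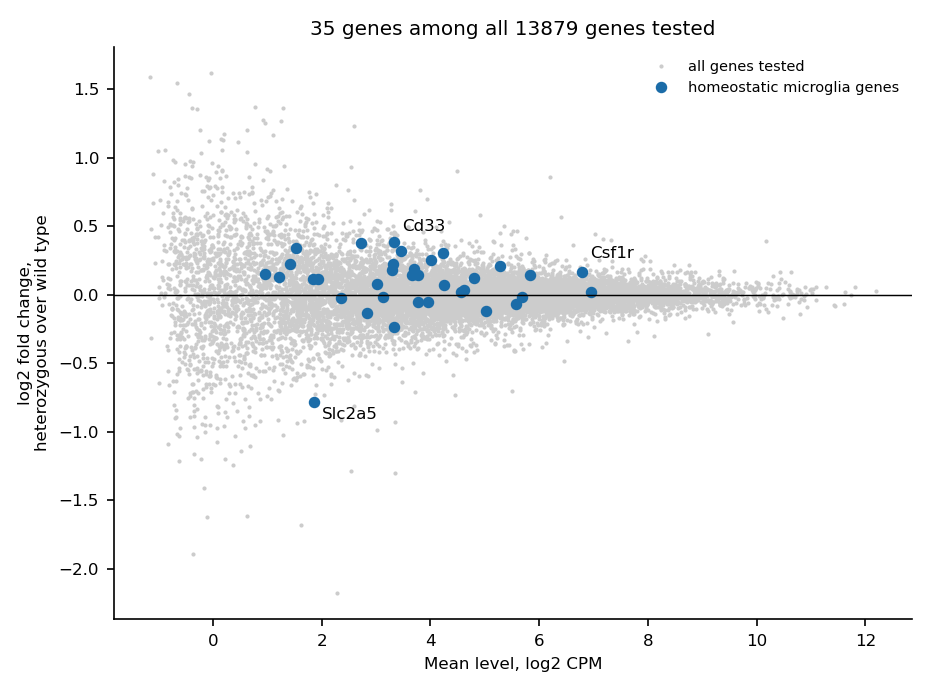
Mean level (log2 CPM) on the x axis and log2 fold change, heterozygous over wild type, on the y axis for all 13879 genes tested (grey) and 35 of the homeostatic microglia genes (blue). Of the blue points 25 lie above 0, most of them within the grey cloud, and Slc2a5 lies lowest at -0.78.

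The genes did not move evenly over the libraries. Heterozygous replicates 1 and 2 held the highest level of 10 and 11 of the 36 genes, and heterozygous replicates 3 and 4 that of 0 and 4. Wild type replicates 1 to 4 held the highest level of 4, 1, 1 and 5 genes, and the lowest level of 6, 8, 6 and 4. Heterozygous replicate 3 lay above the gene's own median for 13 of the 36 genes, fewer than heterozygous replicates 1, 2 and 4, with 26, 27 and 22, and within the 11 to 16 of the libraries labelled wild type. Summed over the list, the libraries labelled heterozygous had 936, 924, 856 and 899 CPM, against 852, 836, 832 and 862 CPM in those labelled wild type. Heterozygous replicate 3 was thus no higher than the highest library labelled wild type. Without it, 11 genes did not overlap between the genotypes, 10 of them higher, beside 6.97% and 3.36% of all genes, and 0 were called. With all libraries these were 7 and 6 genes, beside 4.55% and 2.16% of all genes. Over the 8 libraries left out in turn, 7 to 11 genes did not overlap, and smaller groups overlap less easily for any gene. Apart from heterozygous replicate 3, the share of all genes was not counted for these omissions, so this range describes the list alone.

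**Figure D2:**
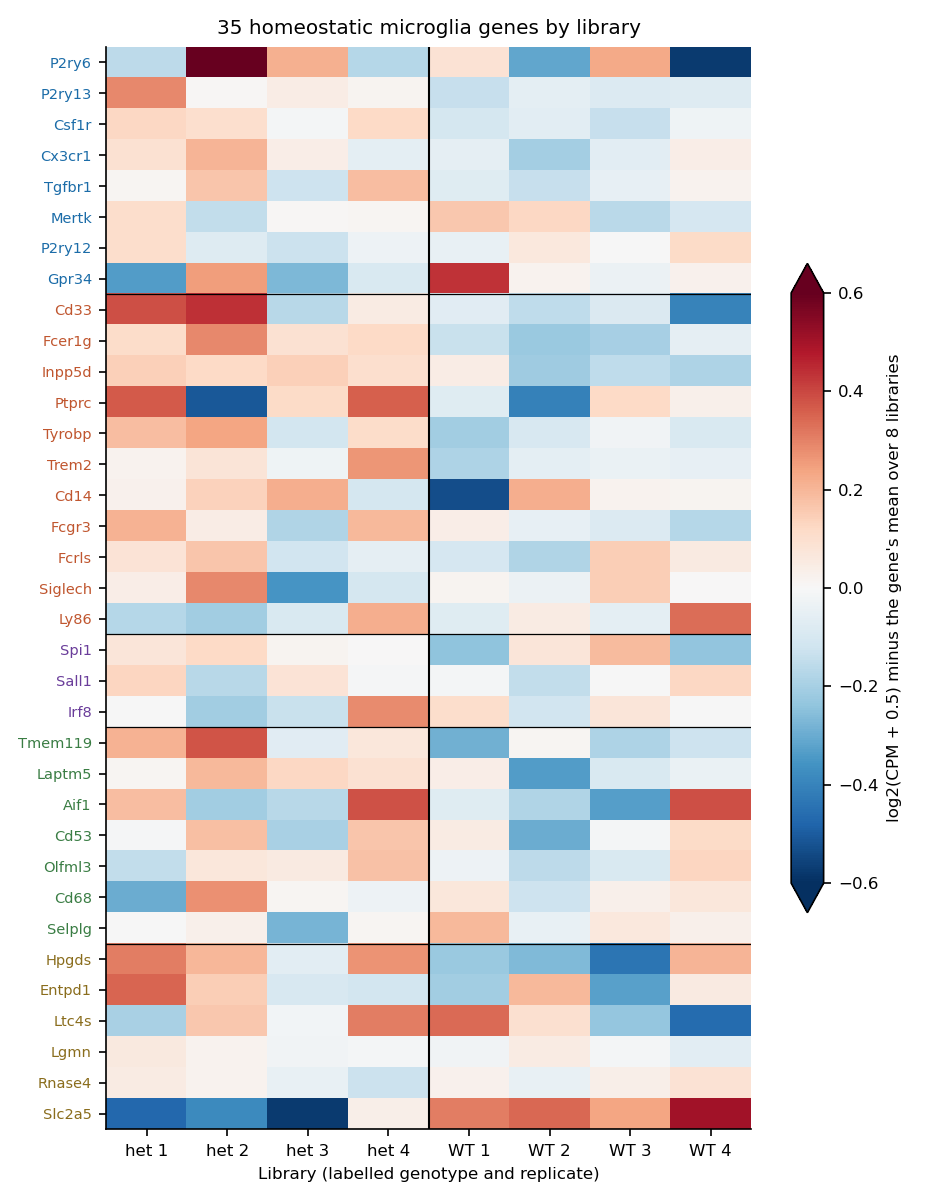
Each row is 1 of 35 genes and each column a library, het for labelled heterozygous and WT for labelled wild type, and the colour gives log2(CPM + 0.5) minus the gene's mean over the 8 libraries, with colours ending at 0.6 in either direction. Heterozygous replicate 3 holds the highest value of 0 of them, and for Slc2a5 every library labelled heterozygous lies below every one labelled wild type.

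Receptors came first among the roles. Csf1r, the receptor for CSF1 and interleukin 34, had 120.1, 118, 109 and 119.7 CPM in heterozygous replicates 1 to 4 and 102, 105, 100.1 and 108 CPM in wild type replicates 1 to 4. All 4 libraries labelled heterozygous lay above all 4 labelled wild type, the closest being 109 CPM in heterozygous replicate 3 and 108 CPM in wild type replicate 4. Its log2 fold change came to 0.17 ± 0.06 (SE), and the Benjamini-Hochberg adjusted p in edgeR was 0.346. Of the annotated exon bases of Csf1r, 15.1% overlap Hmgxb3 on the opposite strand, and since the strand setting of the counting is not given, reads there cannot be told apart. Hmgxb3 had a log2 fold change of -0.08. Cx3cr1, the receptor for the neuronal chemokine fractalkine whose promoter is shown above, had 60.4, 65.3, 58.3 and 54.4 CPM in heterozygous replicates 1 to 4, against 54.5, 49.0, 54.1 and 58.3 CPM in wild type replicates 1 to 4. The groups overlapped, with a log2 fold change of 0.14 ± 0.07 (SE) and a 95% interval from -0.002 to 0.29.

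The ADP receptor gene P2ry12, often taken as the defining gene of the homeostatic state, had 51.0, 44.8, 43.2 and 46.3 CPM in heterozygous replicates 1 to 4 and 45.8, 49.5, 47.2 and 51.3 CPM in wild type replicates 1 to 4. The groups overlapped throughout. Its log2 fold change of -0.06 ± 0.07 (SE) had a 95% interval from -0.21 to 0.08. P2ry13, also an ADP receptor gene and a neighbour of P2ry12 on chromosome 3, had 15.8, 12.9, 13.3 and 13.04 CPM in heterozygous replicates 1 to 4, against 11.6, 12.3, 12.1 and 12.2 CPM in wild type replicates 1 to 4. The groups did not overlap, but the log2 fold change of 0.19 ± 0.11 (SE) had a 95% interval from -0.04 to 0.42, and heterozygous replicate 1 stood apart from the other 3. Among the remaining receptors the log2 fold change was 0.34 ± 0.28 (SE) for the UDP receptor gene P2ry6, 0.12 ± 0.08 (SE) for the TGF-beta receptor gene Tgfbr1 and -0.02 ± 0.08 (SE) for Mertk, a receptor for the uptake of dying cells. Gpr34, a receptor gene for lysophosphatidylserine on the X chromosome, had 9.27 ± 1.87 CPM in the libraries labelled heterozygous and 10.9 ± 1.81 CPM in those labelled wild type (SD, n = 4 each). In all, 0 of the 8 receptor genes were called, 5 had a log2 fold change above 0 and 3 below, and the median was 0.13.

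The immunoreceptors and their adaptors held 3 of the 9 genes with an unadjusted p under 0.05. Fcer1g, the signalling chain shared by Fc receptors, had 11.9, 13.5, 11.7 and 11.98 CPM in heterozygous replicates 1 to 4 and 9.95, 9.33, 9.51 and 10.5 CPM in wild type replicates 1 to 4. No library labelled wild type reached the lowest one labelled heterozygous. Fcer1g had a log2 fold change of 0.32 ± 0.12 (SE) and, in edgeR, a Benjamini-Hochberg adjusted p of 0.435. Inpp5d, which codes for the lipid phosphatase SHIP1 that dampens signals of such receptors, had 17.7, 17.5, 17.7 and 17.2 CPM in heterozygous replicates 1 to 4, against 16.5, 13.8, 14.4 and 13.999 CPM in wild type replicates 1 to 4. The 4 libraries labelled heterozygous lay close together, at 17.5 ± 0.2502 CPM, and above those labelled wild type, at 14.7 ± 1.27 CPM (SD, n = 4 each). Inpp5d had a log2 fold change of 0.26 ± 0.10 (SE) and, in edgeR, an adjusted p of 0.537. Cd33, a gene of the sialic acid receptor family, had 13.03, 13.5, 8.70 and 10.2 CPM in heterozygous replicates 1 to 4 and 9.37, 8.81, 9.22 and 7.33 CPM in wild type replicates 1 to 4. Heterozygous replicate 3 lay among the libraries labelled wild type, and heterozygous replicates 1 and 2, of the first series of animal numbers, lay highest.

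Trem2, the lipid-sensing receptor gene whose promoter is shown above, had 9.95, 10.4, 9.63 and 11.9 CPM in heterozygous replicates 1 to 4, against 8.55, 9.39, 9.51 and 9.45 CPM in wild type replicates 1 to 4. The groups did not overlap, though the lowest library labelled heterozygous exceeded the highest labelled wild type by little, and the log2 fold change of 0.18 ± 0.13 (SE) had a 95% interval from -0.08 to 0.44. Its signalling partner Tyrobp, which codes for DAP12, had 11.3, 11.7, 9.07 and 10.6 CPM in heterozygous replicates 1 to 4 and 8.44, 9.16, 9.68 and 9.21 CPM in wild type replicates 1 to 4. Here heterozygous replicate 3 lay among those labelled wild type, below 3 of them. The log2 fold change of Tyrobp was 0.22 ± 0.13 (SE). The other immunoreceptor genes had log2 fold changes of 0.23 for Ptprc, 0.16 for the lipopolysaccharide co-receptor gene Cd14 and 0.14 for the Fc receptor gene Fcgr3. Those of the Fc receptor-like gene Fcrls, of Siglech, in the family of Cd33, and of Ly86 were 0.04, -0.05 and -0.13. The product of Ly86 pairs with a toll-like receptor relative. Of the 11 genes of this role, 9 lay above 0 and 2 below, with a median of 0.18, and 0 were called.

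The transcription factor genes had levels that overlapped between the genotypes. Sall1, which codes for a factor restricted to microglia among macrophages, had 25.8, 20.9, 24.9 and 23.4 CPM in heterozygous replicates 1 to 4 and 23.3, 21.2, 23.4 and 25.6 CPM in wild type replicates 1 to 4. Its log2 fold change of 0.02 ± 0.10 (SE) had a 95% interval from -0.18 to 0.22. Spi1, the gene of PU.1, had 3.97 ± 0.170 CPM in the libraries labelled heterozygous and 3.68 ± 0.639 CPM in those labelled wild type (SD, n = 4 each), and Irf8 had 5.09 ± 0.878 and 5.17 ± 0.381 CPM in the same order. At 52 to 77 reads of Spi1 per library, its 95% interval was as wide as -0.29 to 0.53.

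Among surface and other proteins, Tmem119, a membrane protein gene used to tell microglia from blood-derived macrophages, had 21.7, 24.4, 17.8 and 19.6 CPM in heterozygous replicates 1 to 4 and 15.2, 18.8, 16.4 and 17.1 CPM in wild type replicates 1 to 4. Wild type replicate 2 lay above heterozygous replicate 3, so the groups overlapped. Tmem119 had a log2 fold change of 0.31 ± 0.11 (SE) and, in edgeR, an adjusted p of 0.432. Laptm5, a lysosomal membrane protein gene of immune cells, had 39.0, 44.4, 42.2 and 41.3 CPM in heterozygous replicates 1 to 4, against 39.8, 30.6, 36.3 and 37.6 CPM in wild type replicates 1 to 4. Wild type replicate 1 lay above heterozygous replicate 1, and wild type replicate 2 was the lowest of all. Laptm5 had a log2 fold change of 0.21 ± 0.08 (SE) and, in edgeR, an adjusted p of 0.437. The other 5 genes had smaller log2 fold changes, of 0.13 for Aif1, the gene of the microglial stain IBA1, 0.08 for the tetraspanin gene Cd53, 0.08 for the secreted protein gene Olfml3, -0.01 for the lysosomal glycoprotein gene Cd68 and -0.12 for the selectin ligand gene Selplg.

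Enzymes and the sugar transporter held the gene of largest difference, which also had the smallest p. Slc2a5 (ENSMUSG00000028976.10, chromosome 4 from 150119283 to 150144169 in GRCm38) had 2.37, 2.55, 2.17 and 3.58 CPM in heterozygous replicates 1 to 4, against 4.42, 4.55, 4.18 and 5.15 CPM in wild type replicates 1 to 4. These rested on 35 to 85 reads per library. No library labelled heterozygous reached the lowest labelled wild type. Slc2a5 had a log2 fold change of -0.78 ± 0.21 (SE), a 95% interval from -1.22 to -0.35 and, in edgeR, an adjusted p of 0.141. Its p ranked 114 among the 13879 genes and was the smallest of the list. Hpgds, the gene of a prostaglandin D synthase of immune cells, had 8.12, 7.48, 6.15 and 7.89 CPM in heterozygous replicates 1 to 4 and 5.47, 5.30, 4.64 and 7.51 CPM in wild type replicates 1 to 4. Wild type replicate 4 lay within the range of the libraries labelled heterozygous, and the log2 fold change was 0.38 ± 0.17 (SE).

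The enzymes Entpd1, Ltc4s, Lgmn and Rnase4 had levels that overlapped between the genotypes. Entpd1, the ectonucleotidase CD39, had a log2 fold change of 0.15, the leukotriene synthase gene Ltc4s one of 0.11, Lgmn one of 0.02 ± 0.05 (SE) and the ribonuclease gene Rnase4 one of -0.05. Lgmn had the lowest within-genotype variation of the list, at 2.97%, and P2ry6, with 28 to 82 reads per library, the highest, at 32.0%. Ltc4s and Rnase4 share 26.4% and 13.4% of their exon bases with another annotated gene, so their counts are uncertain.

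**Figure D3:**
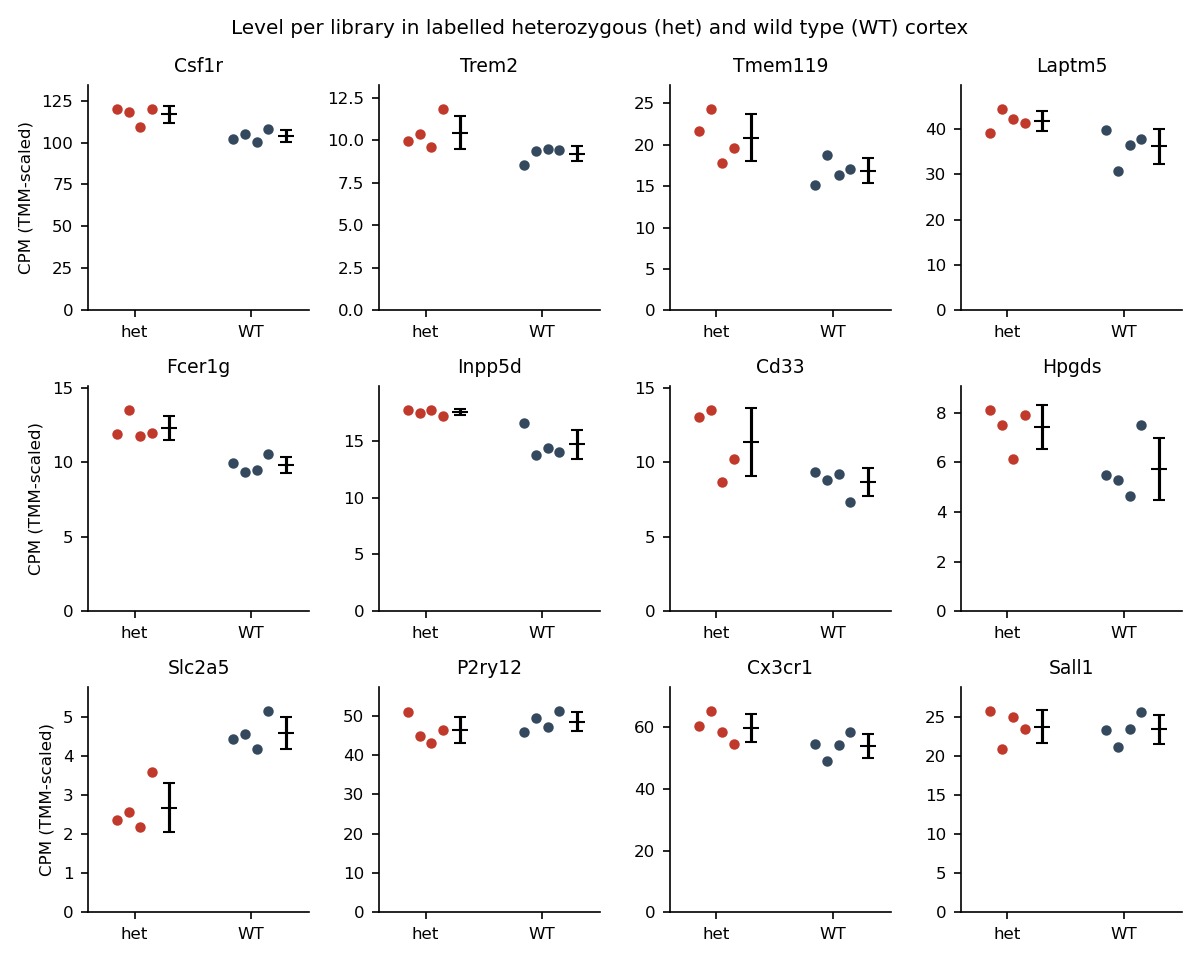
Level per library (CPM on the y axis, starting at 0) for 12 of the genes, with labelled heterozygous (het) left of labelled wild type (WT), 1 point per mouse, and mean and SD drawn beside the points (n = 4). Csf1r, Trem2, Fcer1g and Inpp5d lie higher without overlap, Slc2a5 lower, and P2ry12 and Sall1 overlap.

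**Figure D4:**
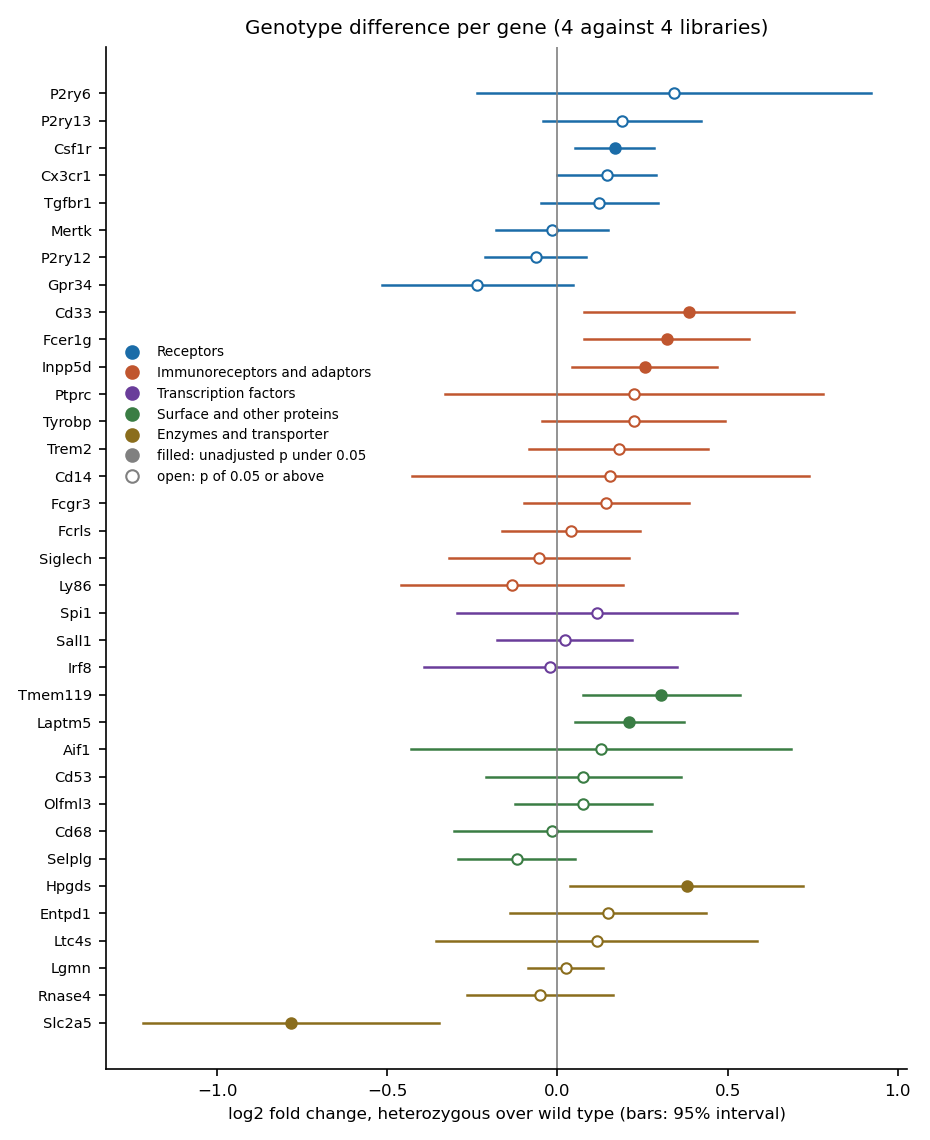
Log2 fold change, heterozygous over wild type, of 35 of the genes grouped by role, with bars for the 95% interval of edgeR's quasi-likelihood fit. The 8 filled points have an unadjusted p under 0.05, 7 above 0 and Slc2a5 below, and 0 of the genes have an adjusted p under 0.05.

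Within either series of animal numbers, with 2 libraries per genotype, the genes had a median log2 fold change of 0.06 in the second series and 0.20 in the first, where all genes tested had 0.0002 and -0.002. The values lay above 0 for 25 of the 36 genes in the second series and for 29 in the first, beside 50.1% and 49.2% of all genes. Slc2a5 had -0.70 in the second series and -0.87 in the first. Cx3cr1 had 0.004 in the second series and 0.28 in the first. The difference between the series was tested as an interaction in edgeR, where 0.00721% of all genes were called and 0 of the 36. At an unadjusted p under 0.05, 4 of the 36 differed between the series, Fcrls, Siglech, Mertk and Cx3cr1, beside 4.09% of all genes. Fcrls had -0.19 in the second series and 0.27 in the first, Siglech -0.32 and 0.18, and Mertk 0.14 and -0.16. With the series as a further term, 0 of the 36 were called, and Slc2a5 had an adjusted p of 0.0964.

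**Figure D5:**
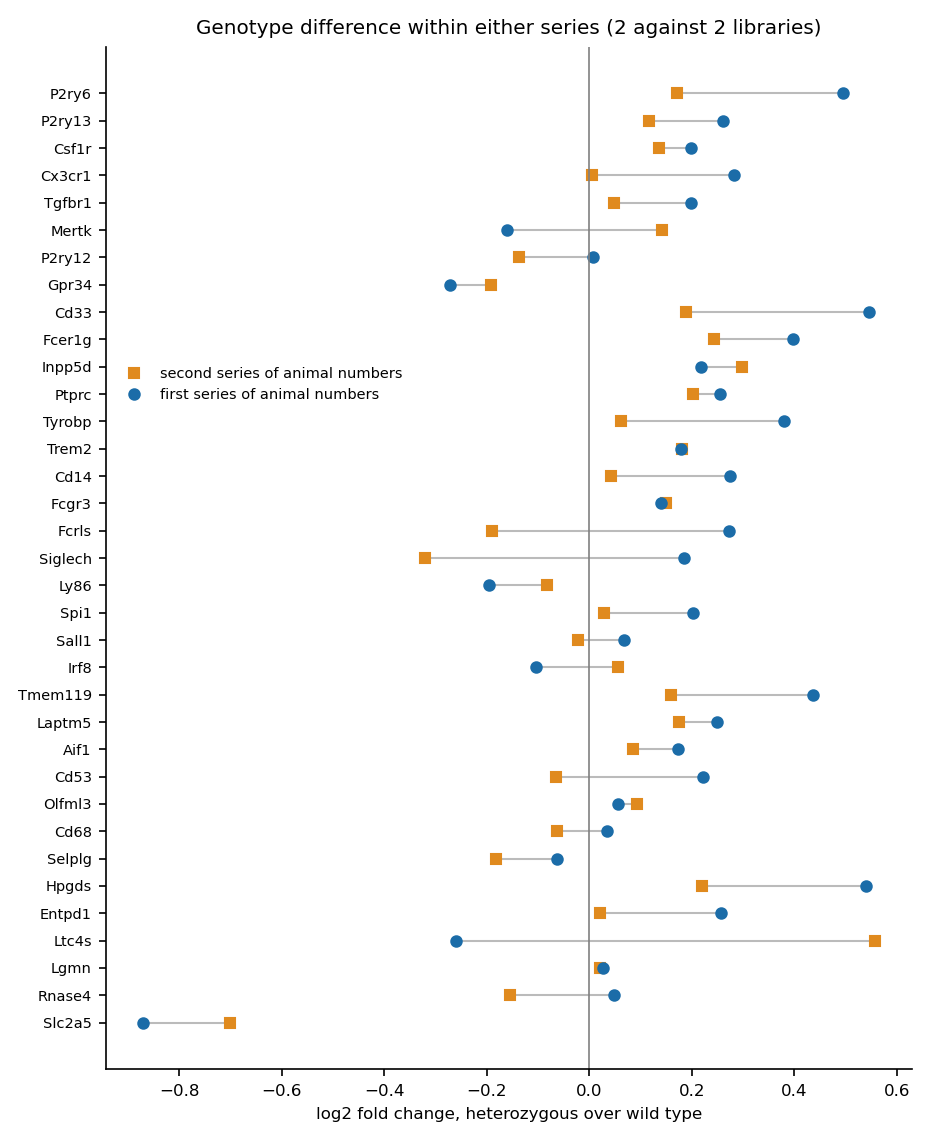
Log2 fold change, heterozygous over wild type, of each of 35 genes within the second (squares) and the first (circles) series of animal numbers, with 2 libraries per genotype in each. Over the whole list the medians are 0.06 and 0.20, and Slc2a5 lies at -0.70 and -0.87.

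Sex was tested in the same libraries, and the share of the 36 genes that stood out was near that of all genes. Gpr34 on the X chromosome had 8.91 CPM in males and 11.2 CPM in females, a male minus female log2 fold change of -0.34 ± 0.14 (SE). It was the 1 gene of the 36 with an unadjusted p under 0.05 in edgeR's quasi-likelihood test, beside 2.92% of all genes, and 0 of the 36 were called, beside 0.0288% of all genes. The genotype difference was tested for a difference between the sexes as an interaction, and edgeR called 0 of all genes and had 0 of the 36 at an unadjusted p under 0.05, beside 2.64% of all genes. The median log2 fold change, heterozygous over wild type, of the 36 genes was 0.07 in males and 0.10 in females. Slc2a5 had -0.94 in males and -0.64 in females, and Tmem119 0.16 and 0.45. These values rest on 2 mice per sex and genotype, and no interval is given for them.

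Genes that act with these receptors and factors were taken from 5 lists, chosen like the 36 with earlier results known. Of their 73 genes 71 were tested, 0 were called, and 11 had an unadjusted p under 0.05, 6 higher and 5 lower, beside 7.24%, 3.54% and 3.7% of all genes. Their median log2 fold change was 0.05. The count of 11 was 7 without heterozygous replicate 2 and 6 without wild type replicate 1, beside 6.31% and 6.25% of all genes. Among 15 tested genes of signalling with TREM2 and TYROBP, 12 lay above 0, with a median of 0.15. The adaptor gene Blnk had 10.9 ± 1.84 CPM in the libraries labelled heterozygous and 8.65 ± 1.29 CPM in those labelled wild type (SD, n = 4 each). Among 12 genes of CSF1R signalling and related cytokine receptors, 7 lay above 0. The phosphatase gene Ptpn6, which codes for SHP-1, had 3.73, 4.00, 3.98 and 3.30 CPM in heterozygous replicates 1 to 4, against 2.74, 2.02, 2.18 and 2.67 CPM in wild type replicates 1 to 4, without overlap. Its adjusted p in edgeR was 0.382. The ligand genes Csf1 and Il34 had log2 fold changes of 0.07 ± 0.10 (SE) and 0.05 ± 0.07 (SE).

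Among 15 genes of TGF-beta signalling, 10 lay above 0 with a median of 0.07. Nrros, whose product anchors latent TGF-beta on microglia, had 8.41 ± 1.13 CPM in the libraries labelled heterozygous and 6.35 ± 0.431 CPM in those labelled wild type (SD, n = 4 each). Its relative Lrrc32 ran the other way, at 4.502, 5.22, 4.04 and 3.30 CPM in heterozygous replicates 1 to 4 and 7.16, 5.82, 6.19 and 5.33 CPM in wild type replicates 1 to 4, without overlap. Their adjusted p were 0.435 for Nrros and 0.418 for Lrrc32 in edgeR. The ligand gene Tgfb1 had a log2 fold change of 0.13 ± 0.16 (SE). Among 16 tested genes of partner ligands and purine handling, 7 lay above 0 and 9 below. Cx3cl1, the gene of fractalkine, the ligand of CX3CR1, had 1063, 1146, 1114 and 1127 CPM in heterozygous replicates 1 to 4, against 1245, 1154, 1208 and 1159 CPM in wild type replicates 1 to 4. The groups did not overlap, with a log2 fold change of -0.10 ± 0.04 (SE) and an adjusted p of 0.568 in the same test. Clu, a lipoprotein gene whose product binds TREM2, had 688 ± 36.9 CPM in the libraries labelled heterozygous and 759 ± 10.1 CPM in those labelled wild type (SD, n = 4 each), with an adjusted p of 0.292. Among 14 partner transcription factor genes 8 lay above 0, and Cebpa had 11.1 ± 1.49 and 8.12 ± 0.627 CPM in the same order, without overlap and with an adjusted p of 0.226.

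Markers of other cells that could bear on these levels were measured in the same libraries. Of 12 perivascular macrophage markers 5 were tested, 4 of them with a log2 fold change above 0 and Lyve1 with -0.20. The median of the 5 was 0.30. Summed levels of the 12 were 27.5 to 31.5 CPM in the libraries labelled heterozygous and 21.0 to 27.6 CPM in those labelled wild type. The largest part of these sums came from Stab1. Stab1, a scavenger receptor gene of such macrophages, had 16.5, 17.3, 17.3 and 17.0 CPM in heterozygous replicates 1 to 4 and 11.3, 13.3, 12.2 and 14.8 CPM in wild type replicates 1 to 4, without overlap and with an adjusted p of 0.165 in edgeR. The part of these cells in the levels of the 36 genes was not tested. The 14 blood leukocyte markers summed to 1.01 to 1.74 CPM and 1.11 to 1.76 CPM in the same order. Of 19 markers of activated microglia 10 were tested, with 5 above 0 and a median of 0.005. The other 9, among them Cst7, Itgax and Clec7a, were too low to be tested. Which cells gave the reads of the 10 was not measured, so their median is no measure of microglial activation. Of the 10 tested markers, Spp1 had 9.56 ± 1.54 CPM in the libraries labelled heterozygous and 7.08 ± 0.593 CPM in those labelled wild type. Ccl6 had 0.762 ± 0.148 and 1.36 ± 0.256 CPM in the same order (SD, n = 4 each). The medians were 0.05 for 12 neuron markers, -0.04 for 11 astrocyte markers, 0.01 for 11 oligodendrocyte markers, -0.05 for 6 precursor markers and -0.10 for 12 vessel markers. Of the 12 neuron markers 11 lay above 0, beside 49.5% of all genes. The 11 astrocyte markers summed to 4587 to 4857 CPM in the libraries labelled heterozygous and 4919 to 4985 CPM in those labelled wild type, with 9 of 11 below 0. Among them Gfap, the astrocyte filament gene, ran the other way, at 95.4, 93.8, 115 and 142 CPM in heterozygous replicates 1 to 4 and 82.9, 90.6, 88.3 and 84.4 CPM in wild type replicates 1 to 4. Its groups did not overlap, with a log2 fold change of 0.36 ± 0.13 (SE) and an adjusted p of 0.570 in edgeR. The part of astrocytes in the levels of the 36 genes was not tested. Red blood cell markers had a median of -0.40, all 5 below 0, at 35.2 to 74.7 CPM in the libraries labelled heterozygous and 63.9 to 112 CPM in those labelled wild type. No marker of these lists was called.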

How the data were processed

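For each of 8 cortex libraries, unnormalised counts of reads per gene were deposited. STAR 2.5.2b, HTSeq and the build mm10 are named per the submitters' processing notes, while the sources used here state neither annotation nor strand setting nor filters. Genes were kept with filterByExpr at a minimum count of 10 (13879 of 22000 rows, 99.95% of reads) and scaled by TMM. Quasi-likelihood models (edgeR 4.0.16, R 4.3.3, robust) had sex and genotype as terms over all genes, with calls made at a Benjamini-Hochberg adjusted p under 0.05, and were tested on simulated data. DESeq2 1.42.0, limma 3.58.1, other scalings, filters and terms, and each library left out were alternatives. Intervals are 95%. Exon lengths and positions came from GENCODE release M21 (GRCm38), where all 36 symbols matched. The genes and lists were chosen with earlier results of these data known. Values in every library are given for genes with an unadjusted p under 0.05, genes without overlap, and defining genes. Counts and medians cover all genes of each list, but 2 genes named by these rules are not reported here singly or in figures. Listed partner and marker genes were named by smallest p, up to 2 per list, and a few ligands were added after their values were seen. All libraries of 1 genotype differed by more than counting noise (chi-square per degree of freedom at least 4.14 for each pair). Libraries were separate mice per the labels.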

Additional observations from a re-analysis of the deposited data

Results flagged for a closer look

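Of 70 groups of 4 libraries (35 genes in 2 genotypes), 5 had a library far from the other 3, and chance flags about 1 in 20 groups. Heterozygous replicate 1 stood high for P2ry13, at 15.8 CPM. Heterozygous replicate 2 stood high for Fcer1g, at 13.5 CPM, and heterozygous replicate 3 low for Selplg, at 26.5 CPM. Wild type replicate 1 stood high for Gpr34, at 13.6 CPM, and low for Trem2, at 8.55 CPM. Outside the comparisons, heterozygous replicate 4, labelled female, held 72 Y-linked reads, more than the 0 to 3 of the other female libraries. Without it 0 of the 36 genes were called and their median log2 fold change was 0.09.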

How the results depend on the processing

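None of the 36 genes and none of the 71 partner genes was called by any of 18 alternatives each. The count of the 36 at an unadjusted p under 0.05 was 9 in the reported fit, beside 7.24% of all genes. It was 9 to 10 under other scalings, filters, tests and terms, and 6 to 10 with 1 library left out. For most of these settings the share of all genes was not counted, so the ranges describe the list alone. Without wild type replicate 2, 5 of the 6 were higher, beside 3.02% of all genes. The median log2 fold change of the 36 was 0.12 to 0.13 under other scalings, filters, tests and terms. With 1 library left out it was 0.08 to 0.16, and 25 to 29 genes lay above 0. That of all genes lay between -0.002 and 0.002. Over all alternatives Slc2a5 had log2 fold changes of -0.93 to -0.72 with adjusted p of 0.0703 to 0.436. The log2 fold change of Sall1 turned to -0.0054 with the RNA integrity number as a further term. With 1 library left out it lay between -0.041 and 0.085, below 0 without heterozygous replicate 1 (-0.021) or wild type replicate 2 (-0.041). The cause was not tested. The count of calls over all genes, 37, was 82 without a filter, 80 with DESeq2's Wald test, 72 with the series as a term and 124 with a block of sex and series, and 19 to 80 with 1 library left out (80 and 24 without heterozygous replicates 1 and 2, 23 and 19 without wild type replicates 1 and 2). The effects of sex, of genotype by sex and of genotype by series called 0 of the 36 under each of 11 alternatives. The labels give the genotypes no shared replicate numbers. Each combination of sex and series holds 1 mouse of each genotype. A fit with that combination as a block, chosen after seeing the data, called 0 of the 36, where 124 of all genes were called. Depth limits genes such as Cd14, with 20 to 40 reads per library.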
